A study of Mus musculus with 3 samples.

Results

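snoRNA fragments are the inserts of 18 to 25 nt that match, without mismatch and in sense, an annotated mouse snoRNA gene and no annotated miRNA hairpin. They numbered 2313 among the 7748874 inserts of that length of the library labelled siSrf1, and 6522 among the 7013026 of that labelled siSrf2. Of 1552 annotated snoRNA genes among 5395 small RNA genes, 424 had at least 1 read. Copies that share their reads were merged, which left 213 units, of which 79 had at least 10 reads and 23 at least 50 reads over both libraries. The reads came from 1335 distinct inserts, of which 1023 match the genome once and 1238 match it in snoRNA genes alone.

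The study sequenced small RNA of HL-1, a mouse cardiomyocyte line that contracts in culture, 48 h after the cells were transfected with siRNA. Both libraries used here are titled for an siRNA against Srf, which encodes a transcription factor of muscle genes, with 1 library each; siNon, the unspecific siRNA by its title, was not analysed here. In the siRNA entry of the labels, however, Srf si2 stands for the sample with the title siSrf1, and siNon for that with the title siSrf2. All cells were of this 1 line and were transfected with an siRNA by Lipofectamine, and directions below refer only to the library labelled siSrf1 or siSrf2. The hairpins of miR-1a, miR-133a, miR-208a, miR-208b and miR-499, which mark muscle, were all read in both libraries, from 210 to 3210782 reads. Among the brain snoRNAs of the Prader-Willi region, SNORD64 and SNORD107 had 0 reads in both libraries, SNORD115 had 2 and 0, and SNORD116 had 25 and 30.

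C/D snoRNAs carry a C box near their 5′ end and a D box near their 3′ end, bind fibrillarin and mostly guide 2′-O-methylation of ribosomal RNA. H/ACA snoRNAs fold into a pair of hairpins, end just after an ACA box, bind dyskerin and guide pseudouridylation. U3, U8, U14, U22 and U13 act in cutting the ribosomal RNA precursor, and scaRNAs guide modification of spliceosomal RNA in Cajal bodies. Most mouse snoRNAs lie in introns of host genes, and shorter RNAs cut from snoRNAs, some of them loaded into Argonaute, are known in many tissues.

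The most frequent insert of 10 of the snoRNAs described here shows where in the snoRNA the fragments lie. Capitals mark TGATGA, the letters of the C box core, CTGA, the letters of the D box core, and ACA in H/ACA inserts. In SNORD44 the marked CTGA is internal, and the gene holds another near its 3′ end. Letters are as read in DNA, 5′ to 3′, and every position is on NCBIM37.
Snord14c and Snord14d, chr9:40611666-40611683 (+), nt 1 to 18 of 86: tcgctgTGATGAtggatt
SNORD44, chr1:162966816-162966840 (+), nt 4 to 28 of 60: gcaTGATGAcgaacaaataCTGAct
SNORD81, chr1:162968443-162968460 (+), nt 5 to 22 of 76: atacaTGATGAtctcaca
Snord7, chr11:83107806-83107823 (+), nt 1 to 18 of 97: atgcaaTGATGAgcgaag
Snord118 (U8), chr11:68886976-68886994 (+), nt 48 to 66 of 135: gaaaaTGATGAttggagct
SNORD28, chr19:8799412-8799433 (+), nt 55 to 76 of 76: gcatgttagagttCTGAtggca
SNORD88, chr7:51503528-51503548 (+), nt 69 to 89 of 91: gacacctggagatCTGAggac
SNORA18, chr9:15118355-15118376 (+), nt 110 to 131 of 131: gggaaggaactacaagACAgct
Snora16a, chr4:131865494-131865515 (+), nt 115 to 136 of 136: aacattgtggaaaatgACAgct
U3, chr1:39576453-39576473 (+), 1 of 5 exact places, nt 76 to 96 of 214: ccacgaggacgagacgtagcg

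For 4 snoRNAs the whole annotated gene is given with its most frequent insert in capitals.
Snord14c, chr9:40611666-40611751 (+): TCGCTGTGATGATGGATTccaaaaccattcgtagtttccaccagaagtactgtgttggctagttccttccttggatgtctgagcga
SNORD44, chr1:162966813-162966872 (+): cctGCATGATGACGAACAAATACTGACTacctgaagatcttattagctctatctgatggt
SNORD28, chr19:8799358-8799433 (+): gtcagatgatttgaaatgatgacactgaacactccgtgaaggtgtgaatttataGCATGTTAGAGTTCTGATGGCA
SNORA18, chr9:15118246-15118376 (+): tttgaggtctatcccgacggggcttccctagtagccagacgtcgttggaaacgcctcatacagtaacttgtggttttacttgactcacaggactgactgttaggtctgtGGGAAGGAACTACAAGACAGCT

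**Figure D1:**
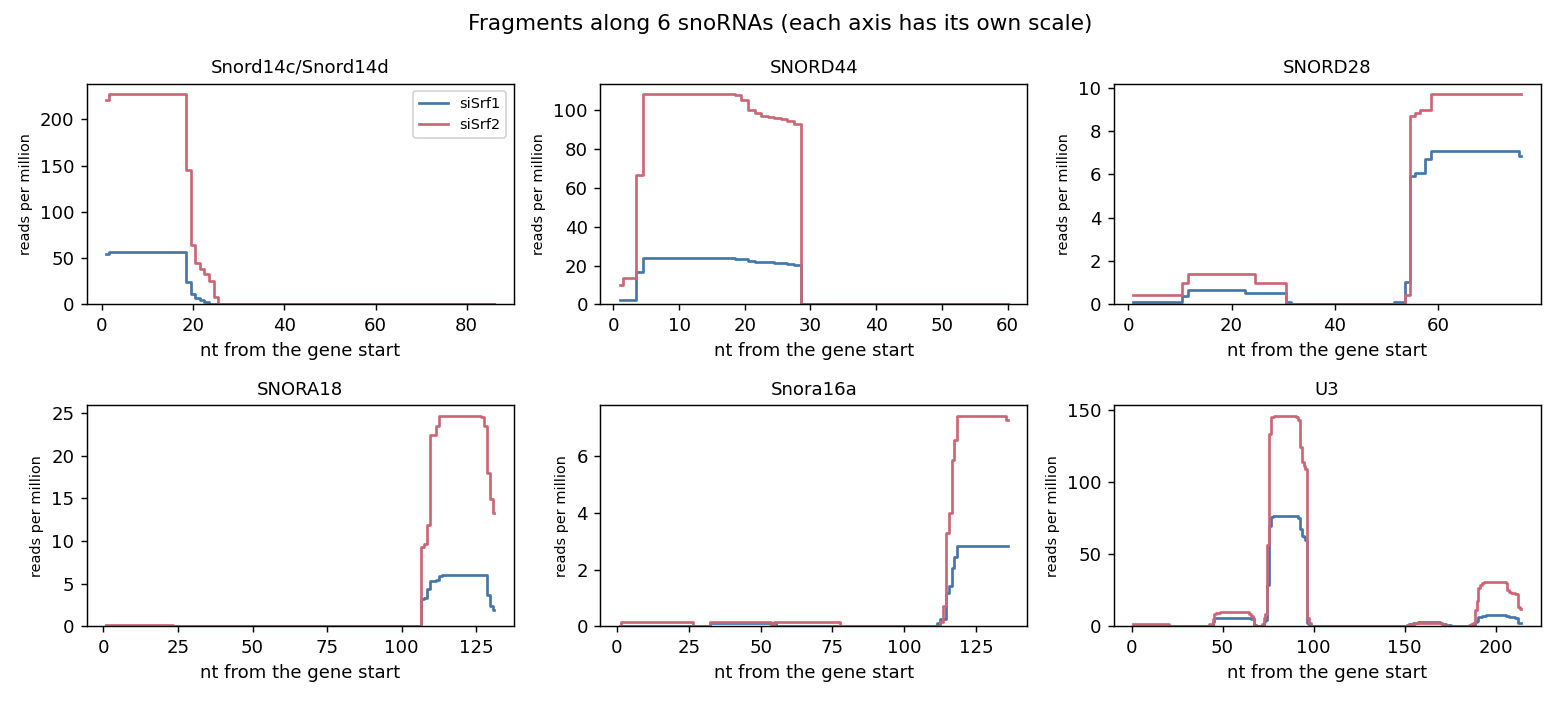
Fragments along 6 snoRNAs. The x axis is the distance in nt from the annotated gene start, and the y axis is the number of fragments over each nt per 1000000 inserts of 18 to 25 nt, with its own scale in each panel. Reads sit on the first 25 nt of Snord14c and Snord14d, at the 3′ end of SNORD28, SNORA18 and Snora16a, and mainly near nt 76 to 96 of U3.

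snoRNA fragments made up 298 reads per 1000000 inserts of 18 to 25 nt (RPM) in the library labelled siSrf1 and 930 RPM in the other, 3.12-fold higher in the library labelled siSrf2 (95% interval 2.97 to 3.27, counting error only, here and for every interval below). Classes follow the gene symbol, so U3, itself a C/D snoRNA, is counted apart from C/D here and below. C/D fragments had 1283 and 4343 reads, and were 3.74-fold higher in the library labelled siSrf2 (3.51 to 3.98). H/ACA fragments had 175 and 475 reads, 3.00-fold higher (2.52 to 3.59). U3 had 724 and 1339 reads, 2.04-fold higher (1.87 to 2.24). scaRNAs had 28 and 64 reads (2.53-fold, 1.60 to 4.09), and genes with any other symbol had 103 and 301 (3.23-fold, 2.57 to 4.08). There was no replicate for any of these values, and in a bulk sample fewer cells of a type and less RNA per cell cannot be told apart.

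The pool was concentrated in few snoRNAs. The 3 most read units held 58.4% of snoRNA reads in the library labelled siSrf1 and 56.6% in the library labelled siSrf2, and the 10 most read held 70.5% and 70.4%. C/D snoRNAs gave 55.5% and 66.6% of the reads, U3 31.3% and 20.5%, and H/ACA snoRNAs 7.57% and 7.28%. H/ACA symbols made up 1031 of the annotated genes against 347 C/D symbols, but 611 of the H/ACA genes are SNORA17 copies, which had 0 reads in the library labelled siSrf1 and 1 in the library labelled siSrf2.

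A unit with at least 50 reads was counted as past the size rule when the libraries differed at least 2-fold and the whole interval of the log2 ratio lay on 1 side of 0. By this rule 18 of 23 snoRNA units were higher in the library labelled siSrf2 and 0 were higher in the library labelled siSrf1. Over all 236 small RNA units with that many reads, 34.7% were past the rule towards siSrf2 and 0.424% towards siSrf1, and without snoRNAs 30% and 0.469% were. The median log2 ratio, siSrf2 minus siSrf1, was 1.63 over the snoRNA units, with 23 of 23 above 0, and 0.53 over all units, with 191 of 236 above 0. Of 183 miRNA hairpins 25.1% and 0.546% were past it. The median was 0.37 over these hairpins and 1.72 over the 30 units of other small RNA. TMM factors moved the median of all units by -0.58 and median-of-ratios factors by -0.73, after which 12 and 8 snoRNA units were past the rule and 21 and 18 of 23 were above 0. Of the 213 units with any read, 66 had 0 reads in the library labelled siSrf1 and 13 had 0 in the library labelled siSrf2. Among the 79 with at least 10 reads these counts were 2 and 0. The same share over all small RNA units was not computed, so nothing particular to snoRNAs is read from these counts.

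**Figure D2:**
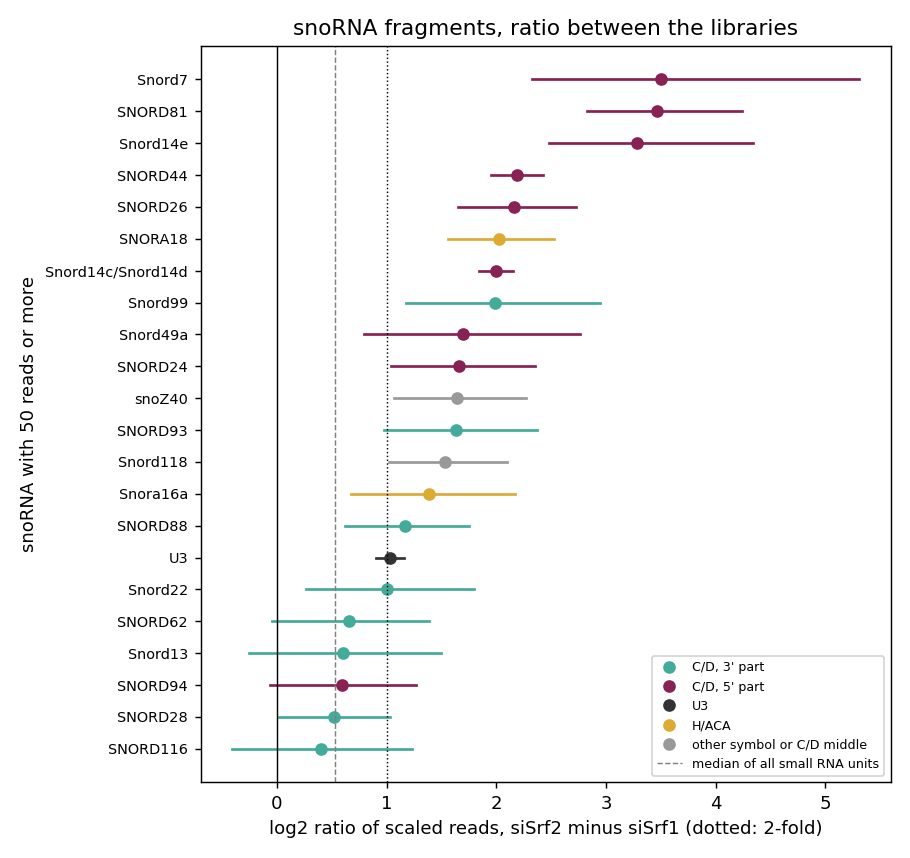
log2 ratio of scaled reads, siSrf2 minus siSrf1, for 22 of the 23 snoRNAs with at least 50 reads. Points are ratios and bars are 95% intervals that cover counting error only, coloured by class and, for C/D snoRNAs, by the part of the gene, of 3 equal parts, with most reads; the dashed line is the median of all small RNA units, at 0.53, and the dotted line marks 2-fold. All 22 points lie above 0, and Snord7, SNORD81 and Snord14e lie farthest, above 3.

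The snoRNAs that act in cutting the ribosomal RNA precursor gave the most reads. Of the 15 genes listed, 9 units were read, with 1267 and 3229 reads together (2.82-fold, 2.64 to 3.01). Of the 6 with at least 50 reads, 5 were past the size rule. Over all measured snoRNA units 18 of 23 were past it. Nothing particular to this list, or to the hosts and lists below, is read from such counts. U3, needed for early cuts on the way to 18S ribosomal RNA, was the most read unit in the library labelled siSrf1, with 724 reads, but in the library labelled siSrf2, with 1339, it came after Snord14c and Snord14d. Its annotated copies share most fragments and were counted as 1 unit of 15 copies, so reads cannot be given to a copy. Snord14c and Snord14d, copies of U14 in introns of the chaperone gene Hspa8, share their fragments and had 442 and 1595.5 reads together, the fraction coming from inserts shared equally between units. They were 3.99-fold higher in the library labelled siSrf2 (3.59 to 4.44), a log2 ratio of 1.99. This ratio depended on the lengths counted. It was 1.70 for inserts of 16 to 28 nt, with 1046 and 3145.5 reads, and 2.38 for those of 20 to 24 nt. Another U14 copy of the same host, Snord14e, had 12 and 109.5 reads (9.72-fold, 5.57 to 20.2), and its interval did not overlap that of the other U14 copies. Its most frequent insert, of 21 nt from its first nt, had 0 reads in the library labelled siSrf1 and 27 in the library labelled siSrf2. Snord118, which is U8 and serves the processing of 5.8S and 28S ribosomal RNA, had 42 and 111 reads (2.90-fold, 2.03 to 4.27). Snord22 had 24 and 44 reads (2.01-fold, 1.21 to 3.48), and Snord13, with 21 and 29 reads, was not past the rule (1.52-fold, 0.841 to 2.81).

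snoRNAs of the same host gene could differ in their ratio. Gas5 is a noncoding host gene whose introns hold several C/D snoRNAs. The 9 read units within it had 223 and 1026 reads together, 5.08-fold higher in the library labelled siSrf2 (4.39 to 5.90), and both with at least 50 reads were past the rule. Most of these reads were SNORD44, with 184 and 759 reads (4.55-fold, 3.87 to 5.38), a guide of 18S methylation. SNORD81, a guide of 28S methylation, had 20 and 204 reads (11.02-fold, 7.11 to 18.8), and the intervals of the 2 Gas5 snoRNAs did not overlap.

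Snhg1, another noncoding host, gave 138 and 323 reads from 8 units (2.59-fold, 2.11 to 3.18), and 2 of its 3 measured units were past the rule. Its SNORD26, a guide of 28S methylation, had 38 and 155 reads (4.46-fold, 3.14 to 6.61). Its SNORD28, a guide of 18S methylation, had 60 and 78 reads (1.43-fold, 1.01 to 2.05) and was not past the rule. The intervals of this pair did not overlap either. SNORD26 was read at the 5′ end of the gene, with 87.0% of its reads starting at nt 1, and SNORD28 at the 3′ end, with 69.6% starting at nt 55.

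In the introns of Hspa8 the U14 copies had 454 and 1705 reads (4.15-fold, 3.74 to 4.61). The 4 snoRNAs of Rpl13a, whose host encodes a ribosomal protein, had 13 and 18 reads (1.53-fold, 0.709 to 3.396). The most read was Snord32a, with 7 and 6. Inserts on the Mir5121 hairpin in Snord33, 1 of these 4, are not counted here and had 2 and 21 reads. Eif4a2, which encodes a translation initiation helicase, hosted 5 read units with 13 and 39 reads (3.31-fold, 1.73 to 6.77), led by Snord2 with 4 and 16. Ncl, the nucleolin gene, hosted 2 read units with 4 and 14 reads (3.87-fold, 1.21 to 16.1), led by Snord82 with 3 and 13. Inserts on a hairpin in SNORD20, also in Ncl, are not counted here and had 2 and 11 reads. The scaRNA list was led by Scarna8, with 5 and 13 reads, most of them 21 nt at its 3′ end.

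Among the other C/D snoRNAs, Snord7, a guide of U6 methylation, had 5 and 56 reads (11.4-fold, 4.999 to 39.6), and 4 and 53 of them were the 18 nt sequence given above. SNORD94, also a guide for U6, had 35 and 48 reads and was not past the rule (1.51-fold, 0.960 to 2.41). SNORD24, in Rpl7a, had 28 and 81 reads (3.16-fold, 2.06 to 5.10). SNORD88, a guide for 28S, had 41 and 84 (2.25-fold, 1.54 to 3.37), and SNORD93, a guide for 18S, had 25 and 71 (3.10-fold, 1.96 to 5.17). The reads of SNORD93 could also come from the annotated gene AC117663.1, which holds the same sequence. snoZ40, in Taf1d, had 33 and 94 reads (3.12-fold, 2.10 to 4.83).

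Among H/ACA snoRNAs only SNORA18 and Snora16a had at least 50 reads, and both were past the rule. SNORA18, in Taf1d, had 47 and 174 reads (4.06-fold, 2.95 to 5.77). Its 22 nt insert that ends on the last nt of the gene was read 7 and 73 times, while the 22 nt insert that begins and ends 3 nt earlier was read 19 and 38 times, so the most frequent form differed between the libraries. Snora16a, in the noncoding host Snhg12, had 23 and 55 reads (2.61-fold, 1.60 to 4.50), with the same most frequent insert in both.

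Of the imprinted snoRNAs listed, SNORD116 alone had at least 50 reads. SNORD113 and SNORD114, of the Dlk1-Dio3 region, had 0 reads in both libraries, which allows up to 3 reads in each. SNORD116, which is known from neurons and has no known ribosomal RNA target, had 25 and 30 reads (1.32-fold, 0.754 to 2.35), and SNORD115 had 2 and 0. The most frequent SNORD116 insert matches the genome at 21 places, so these reads cannot be given to a copy. Its most frequent form also differed, since ctcatcggaaCTGAggtcc was read 16 and 6 times, and the same sequence without its first nt 4 and 9 times. The list of snoRNAs with published small fragments includes SNORD44, SNORD28, SNORD88 and SNORD93. It had 313 and 1001 reads (3.53-fold, 3.11 to 4.02), of which SNORD44 alone gave 184 and 759. On this list 3 of 4 measured units were past the rule.

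Fragments came mainly from 1 end of a snoRNA, and the end differed between the classes. Each gene was divided into 3 equal parts, and a fragment was placed in the 5′, middle or 3′ part by its midpoint. Of C/D reads, 66.7% (64.1 to 69.3) lay in the 5′ part in the library labelled siSrf1 against 82.9% (81.8 to 84.0) in that labelled siSrf2, and 28.6% and 13.5% lay in the 3′ part. Without Snord14c and Snord14d the 5′ shares were 49.6% and 73.2%. Counted by unit, 37 of 56 C/D units with at least 10 reads had most reads in the 5′ part, 17 in the 3′ part and 2 in the middle. H/ACA fragments lay in the 3′ part for 78.9% (72.1 to 84.7) and 79.2% (75.2 to 82.7) of reads, and 8 of 11 units had most reads there. U3, a C/D snoRNA counted apart, differed from the other C/D and from H/ACA snoRNAs, with 82.0% and 76.7% of its reads in the middle part.

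Many fragments began or ended at an annotated end of the gene. In C/D snoRNAs 59.5% and 70.5% of reads started within 3 nt of the gene start, and 24.01% and 10.8% ended within 3 nt of the gene end. In H/ACA snoRNAs 76.6% and 73.9% of reads ended within 3 nt of the gene end. There 53.7% and 53.9% ended on the last nt, and 11.4% and 10.1% ended 3 nt before it, right after the ACA box. The latter were 20 and 48 reads, of which 1 insert of SNORA18 gave 19 and 38. Of 27 units with at least 10 reads in each library, 16 had the same most frequent insert and 19 the same most frequent start in both.

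**Figure D3:**
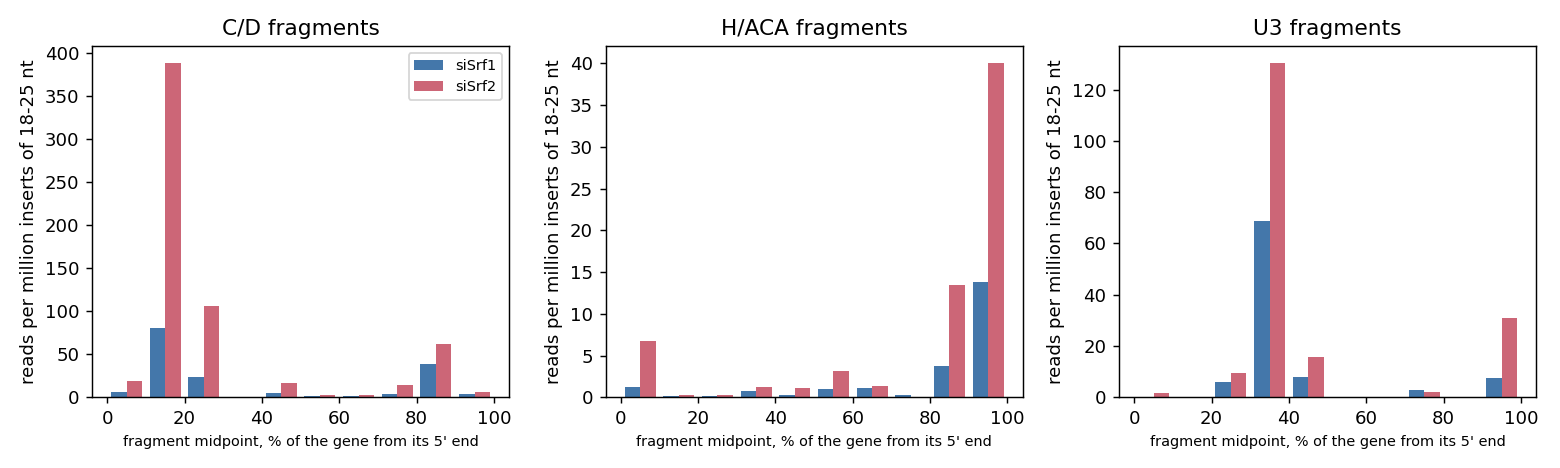
Midpoints of snoRNA fragments along the gene. The x axis is the position in percent of the gene length from the 5′ end, in bins of 10, and the y axis is reads per 1000000 inserts of 18 to 25 nt, on its own scale per class, with a bar for each library. C/D fragments peak near the 5′ end with a smaller peak near the 3′ end, H/ACA fragments peak at the 3′ end, and U3 fragments peak from 30 to 40% of the gene.

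The C box core and the ACA box were held by a larger share of reads than of windows, while for the letters of the D box core the order depended on the library and on the units counted. TGATGA, searched on the sense strand, was in 64.6% and 77.0% of C/D reads, against 12.4% of all windows of 18 to 25 nt in the same genes. Without Snord14c and Snord14d it was in 46.4% and 63.7% of reads against 12.5% of windows. The shorter GATGA, which is part of TGATGA and also holds the C box forms of SNORD24 and SNORD26, was in 70.1% and 83.8% of C/D reads against 17.9% of windows. CTGA, which can overlap TGATGA, was in 41.6% and 29.6% of C/D reads against 38.6% of windows, and without Snord14c and Snord14d in 63.1% and 46.7% of reads against 38.9% of windows. These shares include the internal CTGA of SNORD44, held by its 2 most frequent inserts, with 108 and 360 reads and with 50 and 287. The share without SNORD44 was not computed, so CTGA reads are not all D box reads. ACA was in 79.4% and 84.0% of H/ACA reads against 27.98% of windows, and 68% and 70.3% of reads covered the ACA that lies 3 nt before the gene end, which 52 of 68 H/ACA units have. TGATGA was in 0 H/ACA reads.

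The difference between the libraries was larger for 5′ than for 3′ fragments of C/D snoRNAs. Fragments of the 5′ part had 856 and 3602 reads and were 4.65-fold higher in the library labelled siSrf2 (4.31 to 5.02). Fragments of the 3′ part had 367 and 588 reads and were 1.77-fold higher (1.55 to 2.02), and the intervals did not overlap. The ratio of 5′ to 3′ reads was thus 2.63 times as high in the library labelled siSrf2 (2.25 to 3.06), a value that no scaling of the libraries can move. It was 3.00 (2.53 to 3.56) without Snord14c and Snord14d, and 3.07 (2.51 to 3.76) without the 3 most read C/D units. Scaled by TMM factors or by median-of-ratios factors, the log2 ratio was 1.63 and 1.49 for 5′ fragments but 0.24 and 0.10 for 3′ fragments, and scaled to snoRNA reads it was 0.58 and -0.82.

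Within single genes few reads lay in both end parts. In 13 C/D units each end part had at least 5 reads over both libraries together, but 8 of these had fewer than 5 reads of the 5′ part in the library labelled siSrf1, 5 of them with 0, so that they passed only through the library labelled siSrf2 and no count is read from them. At least 5 reads in each end part of each library were present in 4 units. SNORD24 had 8 and 58 reads in its 5′ part and 18 and 23 in its 3′ part, a ratio 5.57 times as high in the library labelled siSrf2 (1.98 to 17.04). Snord14e had 7 and 100 reads in the 5′ part against 5 and 9 in the 3′ part (7.70 times, 1.60 to 35.7). In SNORD28, with 5 and 10 against 55 and 68, and in SNORD93, with 5 and 17 against 20 and 54, the ratios of 1.61 and 1.26 had intervals that included 1.

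Among the measured C/D units, the 9 with most reads in the 5′ part had a median log2 ratio of 2.16, from 0.59 to 3.50, and 8 were past the size rule. The 8 with most reads in the 3′ part had a median of 0.83, from 0.40 to 1.98, and 4 were past it. The part was set by reads of both libraries together, so the sets depend partly on the library labelled siSrf2. SNORD24, in the first set, had 8 reads in its 5′ part and 18 in its 3′ part in the library labelled siSrf1. The medians are therefore only a description. SNORD94 was the lowest of the first set, and Snord99, with 15 and 55 reads (3.96-fold, 2.26 to 7.72), the highest of the other. In H/ACA snoRNAs 3′ fragments, with 138 and 376 reads, were 3.01-fold higher (2.47 to 3.69), and 5′ fragments, with 13 and 55, were 4.67-fold higher (2.52 to 9.33), with overlapping intervals. In U3 the 3′ part, with 82 and 232 reads, was 3.13-fold higher (2.42 to 4.07) and the middle part, with 594 and 1027, was 1.91-fold higher (1.73 to 2.12).

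**Figure D4:**
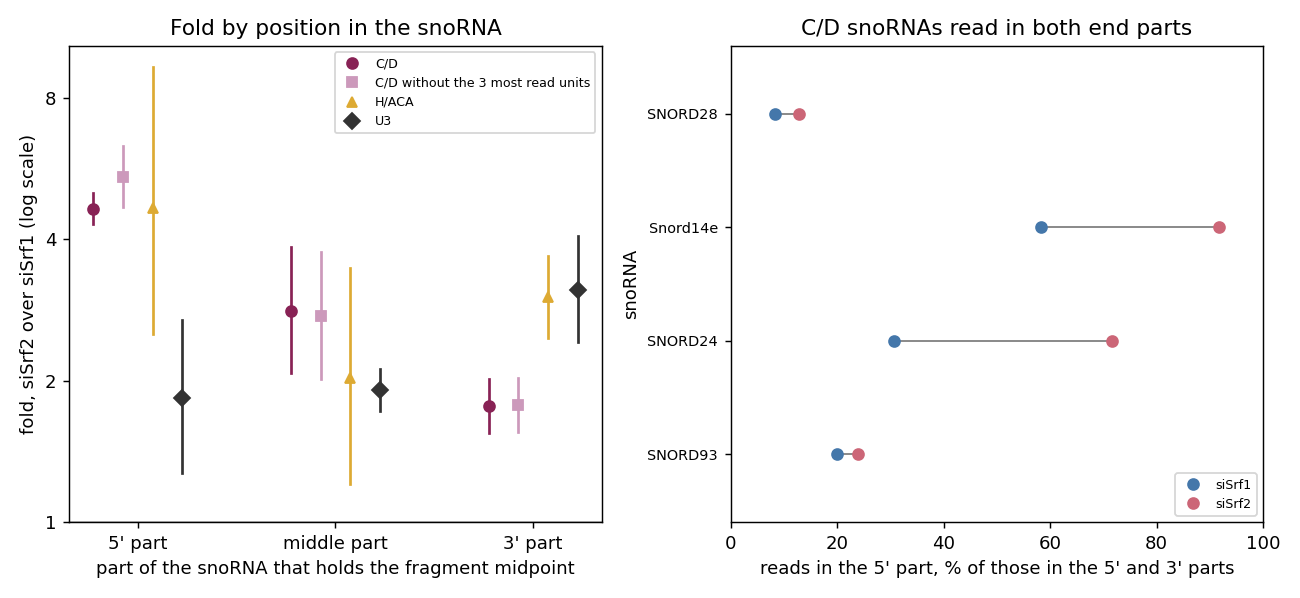
Fold between the libraries by position. The left panel gives siSrf2 over siSrf1 on a log axis for each of 3 equal parts of the gene, with 95% counting intervals, by class; the right panel gives, for the 4 C/D units with at least 5 reads in each end part of each library, the reads of the 5′ part as a percentage of reads of both end parts. C/D folds fall from 4.65 in the 5′ part to 1.77 in the 3′ part, and the points of the 2 libraries lie far apart for SNORD24 and Snord14e and near each other for SNORD28 and SNORD93.

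Base composition moved with these differences. The mean GC content of C/D fragments was 42.7% in the 5′ part and 49.99% in the 3′ part, and their mean lengths were 20.7 and 20.6 nt. Over the 23 measured snoRNA units the log2 ratio and the GC content of the reads had a Spearman correlation of -0.60, as a description of units that share the libraries. snoRNA inserts under 35% GC had 66 and 428 reads (7.17-fold, 5.52 to 9.43), and those of 55% or more had 879 and 1685 (2.12-fold, 1.95 to 2.30). Within the 5′ part of C/D snoRNAs the fold was 9.32 (6.73 to 13.2) under 35% GC and 1.70 (1.12 to 2.61) at 55% or more. Within the 3′ part it was 1.61 (0.757 to 3.56) and 1.67 (1.32 to 2.13) in the same bins. From 45% to under 50% GC the 5′ part was 5.55-fold higher (4.66 to 6.65) and the 3′ part 1.91-fold (1.45 to 2.53). miRNA hairpin inserts had the opposite order, with 0.821-fold under 35% GC and 1.49-fold at 55% or more, where the lowest bin holds miR-1a. The part of GC content in the snoRNA values was not tested.

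Lengths separated the classes as well. Over inserts of 15 to 32 nt, 29.5% and 37.7% of H/ACA reads were 22 or 23 nt long, against 6.78% and 6.65% of C/D reads and 87.7% and 86.5% of miRNA hairpin reads. SNORA18 alone gave 36 and 140 of these 80 and 251 H/ACA reads, so the H/ACA shares rest in large part on 1 gene. C/D reads were most often short, with 24.5% and 24.6% at 18 or 19 nt, and 9.21% and 13.1% at 24 or 25 nt. The longer set was largely SNORD44, of whose inserts of 18 to 25 nt 87.0% and 87.4% were 24 or 25 nt long. Snord14c and Snord14d had 1.36% and 10.9% at those lengths. snoRNA inserts of 24 or 25 nt were 4.81-fold higher in the library labelled siSrf2 (4.22 to 5.50), and those of 20 or 21 nt 2.55-fold (2.33 to 2.79). miRNA hairpin inserts of 24 or 25 nt were 1.70-fold higher (1.68 to 1.72), while those of 22 or 23 nt were at 0.936-fold. Inserts of 15 to 17 nt of any origin were 11.8% and 14.7% of all inserts of 15 nt or longer, and the part of insert length in the snoRNA ratios was not tested.

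**Figure D5:**
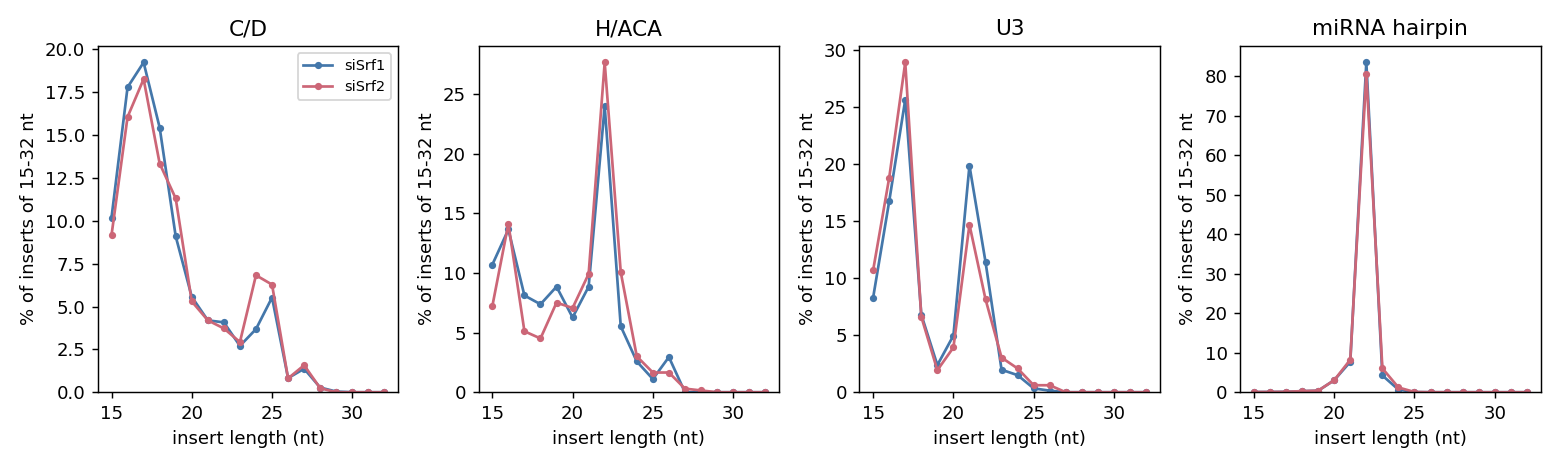
Insert length of C/D, H/ACA and U3 fragments and of miRNA hairpin inserts. The x axis is the length in nt and the y axis is the percentage of that class's inserts of 15 to 32 nt in each library, with its own scale per panel. miRNA inserts and H/ACA fragments peak at 22 nt, C/D fragments at 17 nt with a smaller rise at 24 and 25 nt, and U3 fragments at 17 and 21 nt.

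The first base did not resemble that of miRNAs. T, which stands for U in the RNA, began 26.4% and 34.4% of snoRNA reads and 93.1% and 91.5% of miRNA hairpin reads. Untemplated 3′ bases were rare, with 1.90 and 2.04 added A and 0.740 and 0.653 added T per 100 matching reads.

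Inserts on a miRNA hairpin annotated within a snoRNA gene were left out above, while other inserts of the same genes, where read, were counted. RefSeq places 12 hairpins with reads in snoRNA genes, and these had 2923 and 4171 reads, 55.8% and 39.0% of all reads that match a snoRNA gene. They were 1.58-fold higher in the library labelled siSrf2 (1.504 to 1.65), against 3.12-fold for the other snoRNA fragments, and the intervals did not overlap. Nearly all came from Mir1839 in the snoRNA gene AC167122.1, inside 2900076A07Rik, with 2851 and 3983 reads (1.54-fold, 1.47 to 1.62), more than any unit counted above. The main insert equals miR-1839-5p and had 1698 and 2374 reads; its seed, bases 2 to 8, is in capitals in the first line and the mature part of the gene in the other.
mmu-miR-1839-5p (RefSeq): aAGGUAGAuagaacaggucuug
AC167122.1, chr7:88674741-88674867 (+): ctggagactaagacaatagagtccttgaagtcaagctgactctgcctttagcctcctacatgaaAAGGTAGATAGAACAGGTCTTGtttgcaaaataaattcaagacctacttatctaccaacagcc

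Of the Mir1839 inserts 64.5% and 62.8% were 22 nt long, the most frequent length of the other miRNA hairpin inserts and of the H/ACA fragments as well. Mir664, in Snora36b, had 30 and 101 reads (3.68-fold, 2.45 to 5.79), most of them 22 nt long. Its main insert, with 16 and 68 reads, is 1 nt longer at the 3′ end than the mature sequence in RefSeq. Mir1843b in Scarna3a had 11 and 22 reads, Mir1843a in Scarna3b 10 and 17, Mir3068 in SNORA58 13 and 10, and Mir5121 in Snord33 2 and 21.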

How the data were processed

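The authors deposited, for each library, the count of reads of every distinct 36 nt sequence, without normalization; library preparation used an Illumina kit for small RNA, per the labels. There were 14911499 reads in the library labelled siSrf1 and 14518157 in the library labelled siSrf2. An aligner or a build is not given in the sources used here.

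The adapter was taken from the reads (first 8 nt without mismatch, or at least 4 nt at the read end). Inserts of 18 to 25 nt were matched exactly to snoRNA genes of GENCODE vM1 on NCBIM37 (Python 3.11.15, numpy 2.4.6, numba 0.67.0). Inserts on a GENCODE hairpin or a RefSeq hairpin (GRCm38.p6, by sequence) were left out. Genes whose loci overlap, or that share at least 50% of the reads of the smaller, were merged, and inserts of several units were shared equally. Units were classed by symbol, with Snord as C/D, Snora as H/ACA, and U3 and Scarna each apart. A merged unit took the class of such a symbol in its name. Units with other symbols were not assigned a class.

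Counts were scaled to all inserts of 18 to 25 nt. log2 ratios and folds of single units and single hairpins have a pseudocount of 0.5 reads, which their intervals do not have. Those of pooled reads (classes, lists, host genes, gene parts, length and GC bins) are plain ratios. Ratios have exact conditional binomial 95% intervals and shares exact Clopper-Pearson intervals (scipy 1.17.1). Reads carry no molecular identifiers and need not be independent molecules, so intervals cover counting error only. With 1 library per group no test was possible and no p-value is given. The snoRNAs named are the 16 with the most reads, up to 6 in each direction with the largest ratio past the size rule, and the most read of each class and list. Others (Snord99, Snord22, Snord13, the hairpin genes) were chosen after their values were seen. A snoRNA that the rule names is not reported here and counts in the totals only. The members and lists were chosen with earlier results of these data known. The alternatives tried included scaling by TMM factors (edgeR 4.0.16), by median-of-ratios factors (DESeq2 1.42.0) and by other totals, and other lengths, adapter matches, minimums, mismatches and gene ends; edgeR and DESeq2 gave scaling factors only. The steps were tested on simulated data.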

Additional observations from a re-analysis of the deposited data

Results flagged for a closer look

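Inserts outside 18 to 25 nt also matched snoRNA genes. Inserts of 15 to 17 nt had 2211 reads in the library labelled siSrf1 (exact Poisson interval 2120 to 2305) and 6040 in the library labelled siSrf2 (5889 to 6194), nearly as many as the fragments described above, although so short an insert can match by chance. Inserts of 26 to 32 nt had 79 reads (62.5 to 98.5) and 258 reads (227 to 291), of which SNORD44 had 38 and 139. Inserts in antisense to a snoRNA gene had 13 reads (6.92 to 22.2) and 14 reads (7.65 to 23.5). Each of these counts is above the 3 reads that a count of 0 allows, and the sense inserts of other lengths enter only the shares by length and the alternative of 16 to 28 nt.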

How the results depend on the processing

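No paired analysis was possible because there was a single library per group. The fold of all snoRNA reads was 3.29 scaled to miRNA hairpin reads, 2.90 to all reads, 2.08 with TMM and 1.88 with median-of-ratios factors, 1 by construction scaled to snoRNA reads, 3.50 without sequences seen once, 2.42 with 1 mismatch and, added after seeing the data, 2.26 with RefSeq hairpins kept. For C/D it was 3.48 scaled to all reads, 2.50, 2.26 and 1.20 with TMM, median-of-ratios and snoRNA scaling, 4.04 for 20 to 24 nt, 3.46 for 16 to 28 nt, 4.41 without sequences seen once and 3.44 with 1 mismatch. For H/ACA it was 2.00 and 1.81 with TMM and median-of-ratios factors, 0.963 scaled to snoRNA reads, 3.89 without sequences seen once and 2.29 with 1 mismatch. For U3 it was 1.36, 1.23 and 0.656 with the same scalings, 2.34 for 16 to 28 nt, 2.28 with genes extended by 5 nt and 1.71 with 1 mismatch. For scaRNA it was 1.52 with median-of-ratios factors, 0.811 scaled to snoRNA reads and 5.03 without sequences seen once. The 18 units past the rule towards siSrf2 became 8 with median-of-ratios factors, 3 scaled to snoRNA reads (and 4 towards siSrf1), 28 for 16 to 28 nt, and 50 and 11 at minimums of 10 and 100 reads. The 5′ share of C/D reads was 59.5% and 70.5% by a start within 3 nt, and 66.1% of units; the 3′ share of H/ACA reads was 73.9% by the end in the library labelled siSrf2, and 72.7% of units. The ratio of 5′ to 3′ C/D reads moved to 3.07 without the 3 most read units and to 4.69 over the 4 units read in both end parts of each library, and its interval was above 1 under the 8 alternatives run, 7 of them added after seeing the data; a minimum of reads per part over both libraries chooses units partly by the library labelled siSrf2. Scaled to snoRNA reads, log2 ratios fell below 0 for U3 (-0.61), Snord118 (-0.10), SNORD88 (-0.47), SNORD93 (-0.0081), Snora16a (-0.26), SNORD28 (-1.12), SNORD94 (-1.05) and SNORD116 (-1.24). Of 289 values for the 17 measured named units, 240 stayed within their counting error, and 6 were below 0 outside snoRNA scaling, all of SNORD28, SNORD94 or SNORD116. The causes of these changes were not tested, apart from what a scaling fixes. Depth limits units under 50 reads, for which no ratio was read alone.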
